A study of Homo sapiens with 6 samples.

Results

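Long intergenic noncoding RNAs (lincRNAs) are transcripts mostly from between protein-coding genes that are not annotated as coding. Many are spliced and polyadenylated like mRNAs. The members were the rows with biotype lincRNA in a deposited table of genes that differed between SETD8 knockout and control cells, leaving out MIR3142HG, and they numbered 242 of 7983 rows. The cells were Kasumi-1, an established acute myeloid leukemia line that carries the RUNX1-RUNX1T1 fusion. The control group had 3 libraries from cells with a non-targeting guide (sgNT), whose genotype the labels give as WT. The knockout group had 3 libraries from cells in which CRISPR/Cas9 was directed at SETD8 (sgSETD8), the gene now named KMT5A, which encodes a methyltransferase for a lysine on histone H4. No drug treatment and no time point is named for either group. The labels do not say whether the libraries came from separate cultures, guides or clones, so the p-values measure the spread between these libraries, which may be technical.

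Individual lincRNAs act in different ways. Some hold together nuclear bodies, some bind proteins or microRNAs in the cytoplasm, some are transcribed beside a coding gene whose expression they can affect, and some serve mainly as host transcripts from which a microRNA or a small nucleolar RNA (snoRNA) is cut. A microRNA pairs with its targets mostly through its seed, bases 2 to 8, and H/ACA snoRNAs guide pseudouridylation of other RNAs. Since poly-T beads were used to select the RNA, these libraries measured the host transcripts, and mature microRNAs were not measured.

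Of 23 mature sequences matched in host lincRNAs, 11 are shown here, 5′ to 3′ and with the seed in capitals. They are the main arms of the microRNAs that name the hosts and others of the same seed, so that hosts of 1 seed can be compared (RefSeq, GRCh38.p14).
hsa-let-7a-5p: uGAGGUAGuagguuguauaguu
hsa-let-7b-5p: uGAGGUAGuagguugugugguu
hsa-let-7i-5p: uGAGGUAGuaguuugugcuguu
hsa-miR-4458: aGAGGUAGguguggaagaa
hsa-miR-29c-3p: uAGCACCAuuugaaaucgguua
hsa-miR-29b-3p: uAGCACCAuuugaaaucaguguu
hsa-miR-221-3p: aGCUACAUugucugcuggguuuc
hsa-miR-222-3p: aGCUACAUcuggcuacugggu
hsa-miR-210-3p: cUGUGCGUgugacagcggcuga
hsa-miR-4435: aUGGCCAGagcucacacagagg
hsa-miR-646: aAGCAGCUgccucugaggc
The let-7 seed GAGGUAG occurs in 4 of these microRNAs, from 3 different hosts. MIRLET7BHG carries let-7a and let-7b in annotated exons, and MIR4458HG carries miR-4458 in one. AC048341.1, which the table does not name as a host but whose current symbol is MIRLET7IHG, carries let-7i in an intron. MIR29B2CHG holds miR-29b and miR-29c in exons, and MIR222HG holds miR-221 and miR-222 in introns.

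The sequence of the snoRNA in SNHG8, the lincRNA with the highest level per length in control, is shown with its ACA box in capitals (hg38, chr4:118279190-118279320, plus strand, within an exon of an SNHG8 transcript in GENCODE 29).
SNORA24: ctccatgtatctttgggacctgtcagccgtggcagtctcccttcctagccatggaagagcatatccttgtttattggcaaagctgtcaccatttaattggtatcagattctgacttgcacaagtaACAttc
The ACA lies 3 bases from the end, as the box that names this snoRNA class does.

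Levels are the deposited normalized read counts, that is read counts after division by each library's size factor. The listed genes together held 10966349 to 12557974 reads per library. Ranks and classes of level below use these counts, which grow with gene length, and levels compared between genes are marked as per kb. KMT5A itself was at 1219 ± 32.6 in control and 917 ± 32.9 in knockout (mean ± SD, n = 3 each), a log2 fold change of -0.41 (adjusted p = 5.65e-05, limma), so its transcript was lower but present. Of the markers of AML and progenitor cells, 11 of 12 were listed, with a summed level of 92070 to 95213 in control and 68322 to 70240 in knockout. That sum is mostly KIT (60704 ± 955 to 43551 ± 793, n = 3 each) and MPO (12254 ± 373 to 1541 ± 27.3), which fell, as did PTPRC and FLT3, while CD33, RUNX1, SPI1, ANPEP and CEBPA rose and CD34 and RUNX1T1 were not called. B cell markers (4 of 5 listed) summed to 964 to 1203 and 1938 to 2101, T cell markers (3 of 5) to 1037 to 1070 and 1265 to 1518, nearly all from CD3D while the mean of TRAC went from 17.3 to 1.37, and of the epithelial markers only EPCAM was listed, at 1277 to 1432 and 1857 to 2044. None of the 6 erythroid and 5 fibroblast markers was listed. The table holds only genes that differed between the groups, so an unlisted marker may be expressed without a difference. The part of these marker differences in the lincRNA results was not tested, and in bulk RNA fewer cells of a type cannot be told apart from less RNA per cell.

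Among the 171 lincRNAs with a mean of at least 10, more were lower than higher in knockout cells: 105 fell and 56 rose, while 10 did not pass the test (limma-trend on log2(value + 1), Benjamini-Hochberg adjusted p below 0.05). Of all 7516 genes tested, 94.1% were called in either direction, with 47.3% higher and 46.7% lower. A gene had to differ between these same libraries to be listed at all, so the share called says nothing about lincRNAs, and the direction is what varied. The median log2 fold change (knockout minus control) was -0.77 for the lincRNAs and 0.14 for all tested genes. Protein-coding genes were divided nearly evenly, with 3286 higher and 3154 lower of 6837 and a median of 0.16. Antisense RNAs, the other large noncoding class, had 62 higher and 92 lower of 163 and a median of -0.62.

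Groups did not overlap in 95.9% of tested lincRNAs, near the 95.4% of all tested genes, and the division by direction was again the difference. In 109 lincRNAs (63.7%) every knockout library was below every control library, and in 55 (32.2%) every one was above, where the background over all tested genes was 47.4% and 48.0%. Called changes of at least 2-fold were seen in 65 lower and 32 higher of the 171 lincRNAs. Of all 7516 tested genes, 804 (10.7%) were lower and 627 (8.34%) higher by this measure. At means between 10 and 30, the counts were 32 lower and 19 higher of 57 lincRNAs, and 238 and 178 of 467 genes. At 100 or more, they were 10 and 4 of 56 lincRNAs, and 339 and 266 of 6348 genes. The median size of the log2 fold change, whatever its sign, was 1.17 in lincRNAs and 0.52 in all tested genes, and a listed gene at a low level must show a large change to enter the table.

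**Figure D1:**
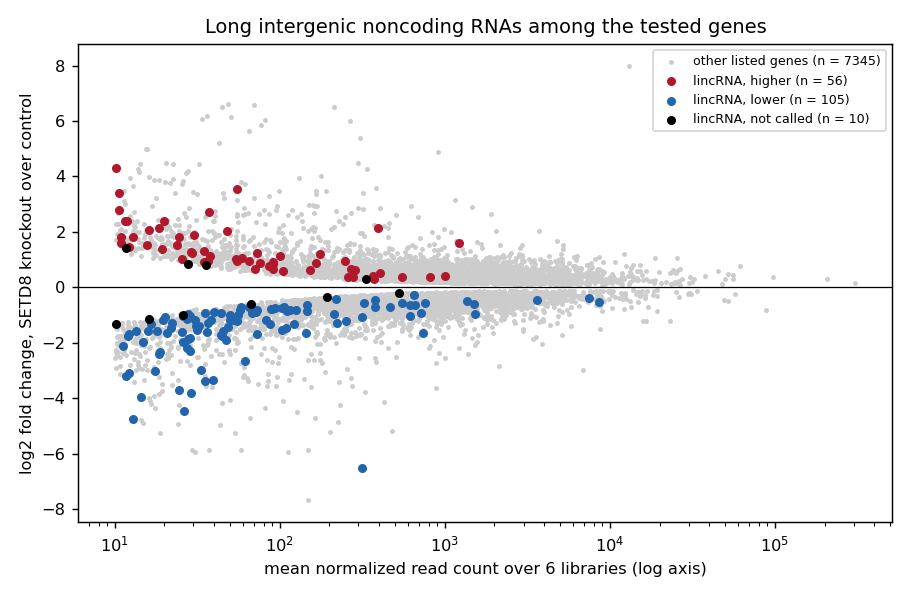
Log2 fold change of each tested gene (knockout over control, vertical) against its mean normalized read count over 6 libraries (horizontal, log axis). The 105 lincRNAs called lower (blue), 56 called higher (red) and 10 not called (black) lie mostly at low levels among the 7345 other listed genes (grey), and the empty band around 0 is where genes did not enter the table.

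LincRNAs were low: their median level was 51.9, or 32.5 per kb, where all tested genes had 677, or 131 per kb. The direction was therefore also read within classes of level. Between 10 and 30, 57.9% of 57 lincRNAs were lower and 51.6% of all 467 genes were. The median log2 fold change in this class was -1.18 for both. Between 30 and 100, the shares were 63.8% of 58 and 52.9% of 701, with medians of -0.85 and -0.68. At 100 or more, 62.5% of 56 lincRNAs were lower, against 45.7% of 6348 genes, with median log2 fold changes of -0.54 and 0.17. This last class has no upper limit and is not matched, since the median level in it was 320.5 for lincRNAs and 878 for all genes. The difference in share was smallest in the lowest class and largest in the highest, and no test of it was made.

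**Figure D2:**
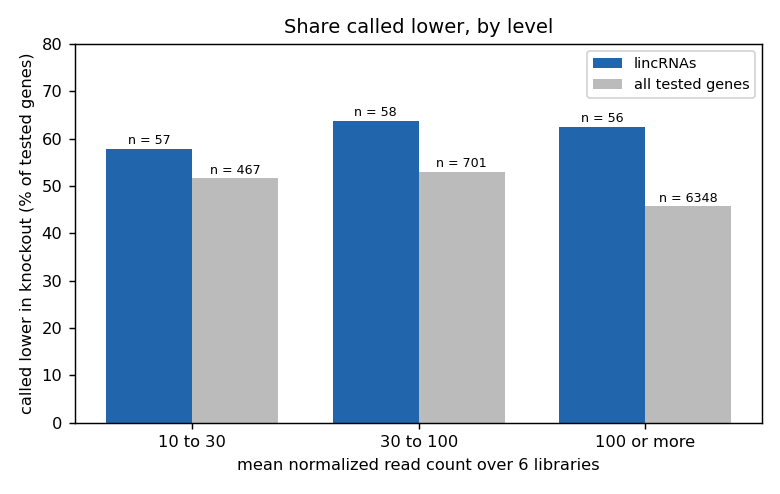
Share of tested genes called lower in knockout (vertical, percent) in 3 classes of mean normalized read count (horizontal), for lincRNAs (blue) and all tested genes (grey), with the number of genes over each bar. The lincRNA bar is the higher of the pair in each class, from 57.9% against 51.6% at the lowest levels to 62.5% against 45.7% at the highest.

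The direction of the lincRNAs differed between chromosomes, in some like that of all genes there and in others not. All 13 tested lincRNAs of chromosome 6 fell, from HCG11 (-0.62) to AL359715.2 (-3.07), although only 42.2% of the 367 tested genes of that chromosome did. All 5 on chromosome 9 and all 5 on chromosome 20 fell as well, but there 74.1% and 71.0% of all tested genes were lower. On chromosome 17, 10 of 13 lincRNAs and 73.7% of all genes fell. On chromosome 1, 9 of 18 rose and 7 fell, where 56.0% of all genes were higher and 37.0% lower. On the X chromosome 4 of 5 rose and 1 fell, where 46.2% of all genes went each way. Against the lean of all genes, 6 of 8 lincRNAs on chromosome 11 fell (34.8% of all genes), as did 5 of 8 on chromosome 12 (35.3%) and 2 of 3 on chromosome 21 (16.5%), while 4 of 7 on chromosome 18 rose (39.2%). These chromosomes were picked with their values in view, and no test was made.

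The abundant lincRNAs carried most of the reads. The 3 highest, NEAT1, NORAD and MALAT1, made up 42.2% of the summed mean of the 242 members, and the 8 highest made up 56.4%. As a share of all listed normalized counts, the lincRNAs took 0.488%, 0.462% and 0.442% in control and 0.336%, 0.326% and 0.358% in knockout. Without those 3 genes the shares were 0.257% to 0.269% in control and 0.196% to 0.208% in knockout. Every knockout library was below every control library, with and without the 3 most abundant.

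NEAT1 (ENSG00000245532, chr11:65422774-65445540), the architectural RNA of paraspeckles, was at 11131, 10151 and 9089 in control and 6956, 6306 and 7926 in knockout. All knockout values lay under the control values. Its log2 fold change was -0.52 ± 0.08 (SE; adjusted p = 6.46e-06, limma). MALAT1, its neighbour on the chromosome and an abundant RNA of nuclear speckles, was at 4660, 3997 and 3857 in control and 2973, 2986 and 3166 in knockout, a change of -0.45. NORAD (chr20:36045622-36050960), a cytoplasmic RNA that binds Pumilio proteins, went from 8500 ± 178 to 6553 ± 122 (n = 3 each), a change of -0.38. These 3 RNAs fell by similar, modest amounts and without overlap between groups. Each row joins all forms of an RNA. Since poly-T beads were used, forms without a poly(A) tail may be undercounted.

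Among the next most abundant, the snoRNA host SNHG8 fell most, and over all 6 libraries it was the highest of all members per length. SNHG8 was at 2077, 1938 and 2077 in control and 1169, 981 and 960 in knockout, a log2 fold change of -0.97 ± 0.07 (adjusted p = 5.41e-10, limma). Per kb it went from 2200 to 1123, while NORAD went from 1592 to 1227 and so was above it in knockout. EBLN3P (-0.58), a transcript of a bornavirus-like pseudogene, and LINC01257 (-0.50) fell too. AC125603.2 and AC125603.1, adjacent on chromosome 12 and among the 5 highest per kb, fell by 0.91 and 1.19 on the log2 scale.

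AC104823.1 (ENSG00000224099, chr2:195448532-195478925) had the larger of the 2 rises among the 8 most abundant lincRNAs, the other being that of the snoRNA host SNHG15 (0.40). Its values were 634, 632 and 548 in control and 1955, 1774 and 1823 in knockout. The lowest knockout library was well above the highest control library. The log2 fold change was 1.61 ± 0.08 (adjusted p = 1.77e-13, limma), and per kb the level rose from 611 to 1871, above that of NORAD in the same cells. Its function is not described by its annotation.

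Of the list of widely studied lncRNAs, 7 of 61 symbols were members by listed symbol and 6 were tested. Among these 5 fell, none rose and 1 was not called, where 46.7% of all tested genes and 61.4% of tested lincRNAs were lower. The others that fell were HCG11 (796 ± 81.0 to 518 ± 44.3, -0.62) and LINC02573 (141 ± 10.1 to 79.9 ± 23.5, -0.86), with n = 3 each. PVT1, which lies beside MYC and is often gained with it in tumours, was at 277, 344 and 266 in control and 412, 374 and 318 in knockout. Its groups overlapped, and its log2 fold change of 0.32 did not pass the test (adjusted p = 0.0586, limma). Without knockout 3 or without control 2, PVT1 did pass, at 0.42 and 0.43. LINC00467 was under the filter, with 29 reads in control and 1 in knockout. AC008124.1, whose current symbol LINC00938 is also on the list, is outside these counts. It was tested and not called (-0.22).

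The largest fall among all tested members was that of AC019117.1 (ENSG00000236039, chr7:17405479-17558909, minus strand; current symbol LINC02889). It was at 649, 594 and 619 in control and 7.30, 6.95 and 3.74 in knockout. Reads were abundant in every control library, 1871 in all, and nearly gone from every knockout library, 18 in all. On the log2(value + 1) scale the change was -6.52 ± 0.25 (adjusted p = 4.79e-15, limma), or 91.6-fold lower. In this table it stands next to KCCAT333, which overlaps its body on the other strand and had 15 reads in control and 0 in knockout. An annotated coding gene that is not listed, AC019117.2, also overlaps the body of AC019117.1 on the other strand, without shared exon sequence. The nearest listed coding gene is AHR, the aryl hydrocarbon receptor. AHR went from 80.3 ± 8.70 to 11.9 ± 3.76 (n = 3 each), a change of -2.69 (adjusted p = 6.79e-07, limma).

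The RefSeq promoter window of AC019117.1 (GRCh38.p14, chr7:17558860-17559159, minus strand, 250 bases before to 50 after the start) is printed because the gene changed most. Beside it is that of LINC00578 (chr3:177441671-177441970, plus strand), chosen after its values were seen, which fell by 2.41 and holds a match in capitals to TGTGGT, the core of the motif bound by RUNX1.
AC019117.1: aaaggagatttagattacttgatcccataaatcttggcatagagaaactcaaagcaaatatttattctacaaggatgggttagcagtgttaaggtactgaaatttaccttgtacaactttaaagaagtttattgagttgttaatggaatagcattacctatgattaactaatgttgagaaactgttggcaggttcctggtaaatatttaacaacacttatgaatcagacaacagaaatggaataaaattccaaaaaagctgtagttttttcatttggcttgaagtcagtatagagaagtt
LINC00578: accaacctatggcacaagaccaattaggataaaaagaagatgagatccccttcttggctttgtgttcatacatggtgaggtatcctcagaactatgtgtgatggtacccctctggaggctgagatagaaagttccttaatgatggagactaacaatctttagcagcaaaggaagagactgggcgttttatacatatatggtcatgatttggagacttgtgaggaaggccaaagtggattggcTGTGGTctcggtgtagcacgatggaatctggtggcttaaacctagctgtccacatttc
The AC019117.1 window has no such match on either strand and no CpG. RefSeq windows were found for 108 members, and 82 of them lay within 1000 bases of the start in the table. TGTGGT or its reverse complement ACCACA occurred in 8 of these 82 windows (9.76%), and in 13.1% of all 35116 windows of the table. Of the lower lincRNAs 5 of 34 had it, and of the higher 2 of 22. The median number of CpGs was 14 in the members' windows and 14 in all.

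The other large falls among members with a mean of at least 30 were in lincRNAs of low level. AL161910.1 was at 60.3, 70.0 and 62.4 in control and 6.25, 10.9 and 1.87 in knockout (-3.37; adjusted p = 3.28e-06, limma). It starts 326 bases from GADD45G, a stress-response gene, in the opposite direction, and GADD45G was itself too low to test (11.3 ± 1.36 in control, 2.08 ± 3.61 in knockout, n = 3 each). LINC01114 went from 72.4 ± 14.1 to 6.95 ± 4.36 (n = 3 each; -3.32), and its nearest listed coding gene POU3F3, a POU-domain transcription factor, changed by -1.33. AC026904.1 went from 60.2 ± 27.0 to 6.63 ± 2.71 (-2.98). AC007998.3, at -2.66, overlaps INO80C, a subunit of a chromatin remodeller, on the same strand and in exons, so that their reads may not be separable. AL121772.1 (-1.91), AL359643.2 (-1.75), LINC01262 (-1.72), AC132872.1 (-1.66) and AL645608.2 (-1.65) completed the 10 largest falls among members with a mean of at least 30.

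Among the 10 largest rises at a mean of at least 30, AL355922.1 (ENSG00000136315, chr14:20919361-20920299) came at the top. It was at 11.2, 6.81 and 5.95 in control and 106, 105 and 94.3 in knockout. The control libraries were low and the knockout libraries close together. The change was 3.56 ± 0.34 (adjusted p = 1.46e-08, limma), or 11.8-fold. At 27.0 kb lies RNASE3, the eosinophil cationic protein, which rose from 2.96 ± 1.97 to 23.1 ± 2.54 (n = 3 each; 2.73, adjusted p = 0.000659, limma).

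LINC00926 (chr15:57300365-57307769) had the largest rise among members at over 100. It was at 133, 166 and 141 in control and 625, 625 and 673 in knockout, a change of 2.13 ± 0.12 (adjusted p = 3.22e-12, limma). The groups were far apart. It lies 1.08 kb beyond the end of TCF12, a basic helix-loop-helix factor, on the same strand, and TCF12 fell by 0.45 (3971 ± 88.2 to 2912 ± 48.3, n = 3 each). AC064834.1 (2.71), on the strand opposite to AC104823.1, rose together with it. AC244453.1 (1.88), AC117465.1 (1.32), AC090204.1 (1.24), AL390066.1 (1.20), MIR29B2CHG (1.15) and ZNF236-DT (1.14) were the others of the 10.

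**Figure D3:**
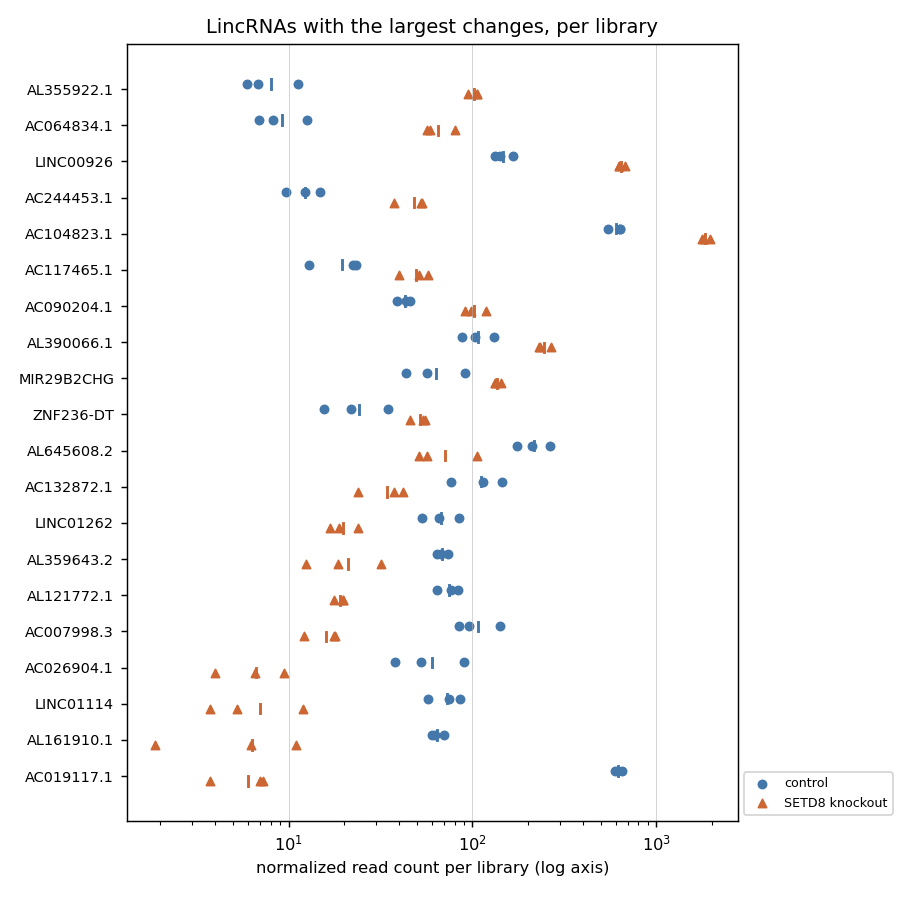
Normalized read count (horizontal, log axis) in each control (blue circles) and knockout (orange triangles) library for the 10 lincRNAs with the largest rise (upper rows) and the 10 with the largest fall (lower rows) among called members with a mean of at least 30 and groups apart, with the group mean as a bar. The groups are apart in every row, as the choice of these genes required, and AC019117.1 goes from a mean of 621 to 5.99.

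Host lincRNAs did not go one way: of 7 microRNA hosts 4 rose and 3 fell, and of 3 snoRNA hosts 2 rose and 1 fell. Among all tested genes 47.3% were higher and 46.7% lower, so this division was near that background. Among tested lincRNAs 32.7% were higher and 61.4% lower, and the difference of the hosts from these shares was not tested. Of the 3 hosts of microRNAs with the let-7 seed, all rose. MIR4458HG was at 209, 200 and 214 in control and 367, 313 and 313 in knockout, with no overlap (0.66 ± 0.12; adjusted p = 0.000156, limma). AC048341.1, the let-7i host, went from 43.8 ± 6.41 to 85.8 ± 3.67 (n = 3 each; 0.96, adjusted p = 0.00213, limma). MIRLET7BHG was at 32.7, 14.6 and 7.93 in control and 30.2, 42.7 and 46.7 in knockout. Its groups overlapped, since control 1 was above the lowest knockout library, and its call (1.26; adjusted p = 0.0219, limma) was lost without knockout 2 (1.21), knockout 3 (1.14), control 2 (1.21) or control 3 (0.81).

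The miR-29 host MIR29B2CHG, whose microRNAs are often low in myeloid leukemia, was at 90.9, 43.8 and 56.5 in control and 133, 143 and 133 in knockout. The knockout libraries were close together and all lay above the control libraries. The change was 1.15 ± 0.23 (adjusted p = 0.000335, limma). Its listed start lies 1.88 kb beyond the end of CD34, a progenitor surface marker on the same strand, which did not pass the test (7153 ± 283 to 7818 ± 85.1, n = 3 each; 0.13, adjusted p = 0.0695, limma). MIR222HG, the host of miR-221 and miR-222, was at 212, 222 and 241 in control and 311, 375 and 361 in knockout (0.63 ± 0.12; adjusted p = 0.000254, limma). The table also has a row for MIR221 itself, at 9.20, 8.75 and 13.9 in control and 35.4, 30.8 and 32.7 in knockout (1.57; adjusted p = 0.00298, limma). Host and hairpin row rose together, but the hairpin lies within the host's body, so how reads were divided between them is uncertain.

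The 3 microRNA hosts that fell carry unrelated seeds. MIR4435-2HG was at 297, 311 and 339 in control and 106, 140 and 145 in knockout (-1.28 ± 0.15; adjusted p = 3.01e-07, limma), the largest fall of a host. Its body overlaps ACOXL and BCL2L11 on the other strand. MIR210HG, whose microRNA is induced in low oxygen, went from 579 ± 69.8 to 351 ± 31.5 (n = 3 each; -0.72). MIR646HG was at 68.5, 76.8 and 95.1 in control and 57.3, 36.7 and 54.2 in knockout (-0.70; adjusted p = 0.0311, limma), and lost its call without knockout 2 (-0.50), control 2 (-0.72) or control 3 (-0.57).

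Of the snoRNA hosts, SNHG8 fell as given above, while SNHG15 and SNHG4 rose slightly. SNHG15 was at 703, 923 and 982 in control and 1134, 1165 and 1121 in knockout (0.40 ± 0.09; adjusted p = 0.00146, limma). SNHG4 was at 688, 698 and 722 in control and 955, 836 and 967 in knockout (0.38 ± 0.08; adjusted p = 0.000543, limma). SNHG4 shares exon sequence with a MATR3 entry on its strand, so its reads are uncertain. EPB41L4A-AS1, which is not named as a host but holds SNORA13, fell from 907 ± 150 to 608 ± 32.3 (n = 3 each; -0.56). Spliced hosts and their snoRNAs can be regulated apart, and the snoRNAs themselves were not listed.

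**Figure D4:**
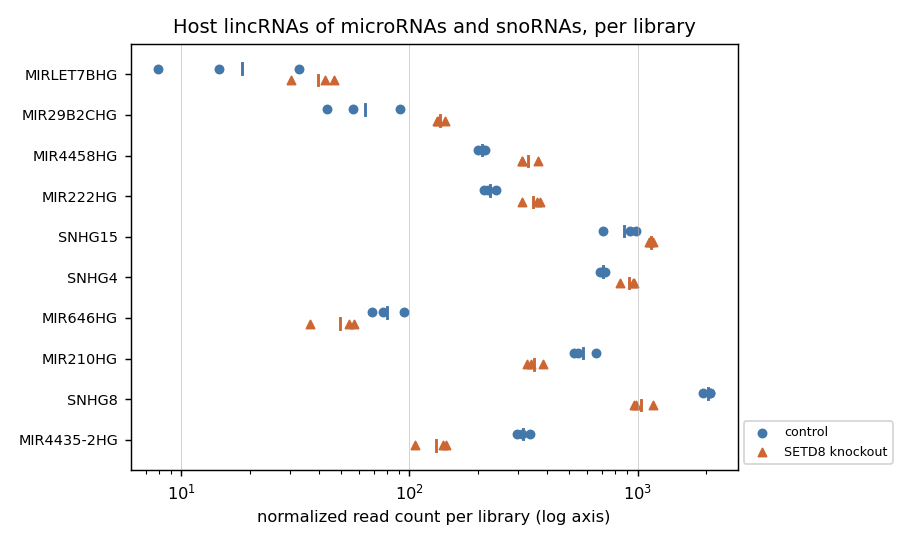
Normalized read count (horizontal, log axis) of the 10 lincRNAs named as microRNA or snoRNA hosts in each control (blue circles) and knockout (orange triangles) library, with group means as bars, ordered by log2 fold change from MIRLET7BHG (1.26) to MIR4435-2HG (-1.28). The groups overlap only in MIRLET7BHG.

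Some members had all or nearly all of their reads in 1 group. LINC00887 had 78 reads in control and 0 in knockout, which is at least 26.1-fold lower against a floor of 3 reads over the group. LINC00908 had 0 reads in control and 61 in knockout, at least 20.4-fold higher. AL136317.2 had 84 and 3 reads, a ratio of 28.2 with an exact 95% interval from 9.31 to 139 that covers counting error only. Of the 71 members under the filter, 52 had the lower mean in knockout and 19 the higher, 16 had no read in knockout and 11 none in control. The same split was not counted for other genes under the filter. At means between 10 and 30, 57.8% of all tested genes had a log2 fold change below 0. The 71 members held 10 to 61 reads each over the 6 libraries and were not tested. GAS1RR was among them, with 44 reads in control and 0 in knockout. It is transcribed away from GAS1, a growth-arrest gene 1.51 kb off, which fell from 109 ± 8.40 to 44.5 ± 18.3 (n = 3 each; -1.35, adjusted p = 0.000263, limma). LINC01719 had 29 and 0 reads, AC243830.1 22 and 0, and LINC00240 0 and 18.

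Several groups of members that lay close together went the same way, while BX537318.1 and MIRLET7BHG on chromosome 22 went opposite ways. Such groups were not set against a background. Protein-coding genes had the direction of their own nearest listed coding gene in 63.8% of pairs. The clusters and pairs in this paragraph were chosen after their values were seen. On chromosome 3, LINC02036, LINC02037 and LINC00887 lie within chr3:194203016-194312803, beyond HES1, a transcriptional repressor downstream of Notch. LINC02036 fell by 1.41. LINC02037 was at 45.0, 51.5 and 67.4 in control and 3.13, 0.993 and 6.54 in knockout (-3.79; adjusted p = 2.45e-06, limma), without overlap. HES1 itself went from 611 ± 28.2 to 46.7 ± 18.6 (n = 3 each; -3.77, adjusted p = 6.41e-12, limma), so the 4 genes fell together across the region. On chromosome 18, LINC00908 (4.30) and LINC00683 (3.39; 5 reads in control, 59 in knockout) both rose, while ZNF516, the nearest listed coding gene of both, rose by only 0.24. OLMALINC was at 1173, 1079 and 1089 in control and 337, 348 and 383 in knockout (-1.65 ± 0.09; adjusted p = 1.27e-12, limma). It starts 8.68 kb downstream of SCD, the stearoyl-CoA desaturase, which fell from 23346 ± 300.1 to 9957 ± 163 (n = 3 each; -1.23, adjusted p = 4.75e-14, limma).

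Over all members, the nearest listed protein-coding gene was a median of 52.2 kb away, and 216 different genes served as neighbours. Both genes were tested in 164 pairs, and in 107 (65.2%) they had the same direction. Protein-coding genes had the direction of their own nearest listed coding gene in 63.8% of 6677 pairs, so the lincRNA share was near that of genes in general. Of the neighbours 61.6% were below 0, and of the lincRNAs in these pairs 64.6%. Up to 100 kb the shares were 65.1% of 106 lincRNA pairs and 65.8% of 5246 coding pairs. Beyond 100 kb they were 65.5% of 58 and 56.6% of 1431. Pearson's r of the log2 fold changes was 0.42 over the 164 lincRNA pairs and 0.23 over the coding pairs. Pairs share neighbours and libraries, and r is given as a description only.

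By position relative to the neighbour the numbers are small, and differences between the shares were not tested. Where the lincRNA lay downstream on the same strand, 35 of 47 pairs (74.5%) had the same direction, and where it lay upstream on the same strand 15 of 31 (48.4%) did. The share for coding genes was 64.2% in both arrangements. Where both genes started within 1 kb of each other on opposite strands, 5 of 10 lincRNA pairs and 71.1% of 536 coding pairs had the same direction. LINC01770 and VWA1 (288 bases apart) rose together, by 0.86 and 1.53. AC078846.1 fell by 0.62 while NRF1, a regulator of mitochondrial genes 84 bases from it, rose by 0.34, and ZNF236-DT rose by 1.14 while ZNF236 fell by 0.47. TRAM2-AS1 fell by 1.17, and TRAM2, at 0.20, was not called. Among the 11 pairs with overlapping bodies, 6 had the same direction, against 67.3% of 1041 overlapping coding pairs, and reads there may be shared. Of the 20 lincRNAs with the largest changes, 18 had a tested neighbour, and 12 went its way.

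The other neighbours of these 20 went both ways. For the rising AC104823.1 and AC064834.1 it was SLC39A10, a zinc importer, which rose from 945 ± 77.3 to 1331 ± 35.7 (n = 3 each; 0.50). CD58, the ligand of CD2 on T cells, lies 15.3 kb from AL390066.1 and rose with it (549 ± 22.0 to 986 ± 2.55, n = 3 each; 0.84). In contrast, TBL1XR1 (-0.79), a subunit of the NCoR corepressor and the neighbour of AC117465.1, FAM72B (-0.48), the neighbour of AC244453.1, and TTI2 (-0.36), the neighbour of AC090204.1, fell while the lincRNA rose. Beside the falling lincRNAs, PYGB, the brain form of glycogen phosphorylase, fell from 7067 ± 483 to 3970 ± 154 (n = 3 each; -0.83) at 2.84 kb from AL121772.1. SAMD11 (-0.47), CSNK1D (-0.41), a casein kinase, and FRG1 (-0.36) also fell with AL645608.2, AC132872.1 and LINC01262. ECI2 (0.42), an enzyme of fatty acid oxidation at 896 kb from AL359643.2, rose. SNAI2, a zinc-finger repressor at 401 kb from AC026904.1, was under the filter.

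**Figure D5:**
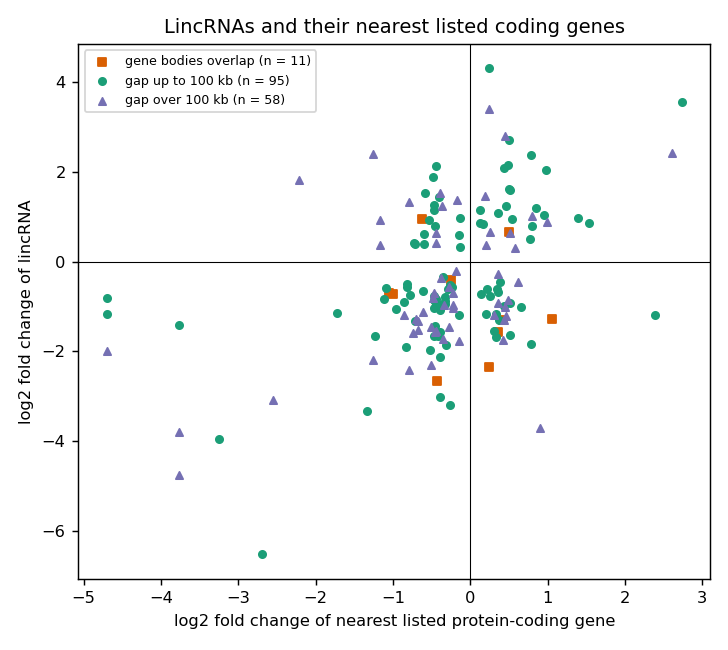
Log2 fold change of a lincRNA (vertical) against that of its nearest listed protein-coding gene (horizontal), for 164 pairs in which both were tested, by the gap between gene bodies (11 overlapping, 95 up to 100 kb, 58 over 100 kb). 107 pairs lie in the quadrants of the same direction, and pairs of strongly lower genes, such as AC019117.1 (-6.52) with AHR (-2.69), lie at the lower left.

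Genes that make, trim or bind such RNAs were counted from lists, where all genes gave 47.3% higher and 46.7% lower. Only genes listed in the deposited table were counted, and a gene missing from it may not have differed. The lists held 20 symbols for the snoRNA particle, 13 for paraspeckles and 21 for nonsense-mediated decay. They held 27 for nuclear RNA decay, 20 for Integrator and 23 for microRNA processing. The listed proteins of the snoRNA particle were mostly higher (9 higher, 2 lower and 1 not called of 12 tested, median 0.37). Among them were SNU13 (1411 ± 99.5 to 2353 ± 239, n = 3 each; 0.73), which binds box C/D snoRNAs, and NOP56 (0.65), a core protein of the same particles. The listed paraspeckle proteins were mostly higher as well: 7 of 10 rose, 1 fell and 2 were not called (median 0.37). The NEAT1 row was lower, as measured after poly-T selection. The listed MATR3 row, a nuclear matrix protein, fell by 0.71. The listed factors of nonsense-mediated decay, which also degrades spliced noncoding RNAs such as snoRNA hosts, were mostly lower (3 higher and 9 lower of 12, median -0.39). Among them were DCP1A (-0.57), a decapping factor, and SMG8 (-0.56), a regulator of the SMG1 kinase.

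The remaining lists were mixed. Of 14 tested genes of nuclear RNA decay, 5 rose, 7 fell and 2 were not called (median -0.20). ZCCHC7, a subunit of the complex that tags nuclear RNAs for the exosome, fell by 1.09 (1464 ± 76.4 to 691 ± 74.8, n = 3 each), and it is the nearest listed coding gene of EBLN3P. EXOSC1, an exosome subunit, fell by 0.86. Of 12 tested genes on the Integrator list, 6 rose, 4 fell and 2 were not called (median 0.05), with INTS1 at 0.95 and INTS2 at -1.04. That list joins subunits of Integrator, which ends transcription of many noncoding RNAs, with the associated gene INIP. Of 13 genes of microRNA processing 7 rose and 5 fell (median 0.21). DGCR8, the partner of DROSHA, rose by 0.63, and TUT7, which adds uridines to let-7 precursors, fell by 1.20.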

How the data were processed

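RNA-seq was made from 3 control and 3 SETD8 knockout libraries of Kasumi-1 cells, with poly-T selection and a directional kit per the labels' protocols. HISAT2 and DESeq2 and the build hg38 are named in the submitters' processing notes; tool versions, the gene counter and its use of strand were not given in the sources used here. Genes that overlap are therefore uncertain. The values the authors deposited are a signal, read counts divided by a size factor per library: dividing by the value of 1 read (0.934 to 1.04) gave whole numbers within 0.001 for 100% of values, less certainly in control 3 and knockout 2, where 1 read is near 1. The authors also deposited a log2 fold change and raw and adjusted p-values per gene. The largest deposited p-value was 0.049998, and the adjustment ran over 19860 genes, so every listed gene was already selected on these libraries and genes outside the table were not analysed.

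Genes with a mean of at least 10 (7516) were tested with limma 3.58.1 under R 4.3.3, using limma-trend on log2(value + 1), two-sided, with Benjamini-Hochberg adjustment over 19860 genes and calls at adjusted p below 0.05. Fold changes on that scale understate changes of low genes. The script was tested on simulated data. Alternatives were edgeR 4.0.16 and DESeq2 1.42.0 on the recovered reads, TMM and upper-quartile scaling, other filters (none, or a mean of 50) and pseudocounts (0.5 and 5), a replicate block, each library left out, and, chosen after seeing the data, only members that overlap no annotated coding gene. The members, gene lists and rules were chosen with earlier results of these data known.

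Named lincRNAs were the 10 largest rises and falls among called members whose mean was 30 or more and whose groups were apart, the 8 with the highest mean and the 5 highest per kb, all hosts by symbol, tested members of the widely studied list, the nearest listed coding gene of the 20 largest changes, and up to 4 under the filter with reads in 1 group only; per list of coding genes, the 2 most changed of the called members with a mean of 50 or more were named. 1 gene that this rule names is not reported here. Genes outside it (OLMALINC, EPB41L4A-AS1, AC048341.1, LINC00578, the lincRNAs near HES1 and ZNF516, AL136317.2, KCCAT333, BX537318.1, AL359715.2 and the pairs that start within 1 kb) were chosen after their values were seen. AC008124.1 was also named outside this rule, by its current symbol. Neighbours were found from the table's coordinates, by the gap between gene bodies. All 242 members matched GENCODE 29 in chromosome, start and end, and 40 overlapped an annotated coding gene. Replicates differed by more than sampling noise (chi-square per degree of freedom 3.83 to 11.9, the largest between knockout 1 and knockout 3). This does not show whether they came from separate cultures. All 6 libraries were kept.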

Additional observations from a re-analysis of the deposited data

How the results depend on the processing

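Of the 613 values of the 39 named lincRNAs under these alternatives, 602 kept direction and call, 7 (MIR646HG and MIRLET7BHG) lost the call and 4 (PVT1) gained it, and none turned direction. The counts of 56 higher and 105 lower became 30 and 52 with a mean of at least 50, where fewer genes are tested, 32 and 65 when a log2 fold change of 1 or more was required, and 74 and 152 without a filter. edgeR's quasi-likelihood test called 57 and 106, DESeq2 55 and 102. The median log2 fold change of -0.77 became -0.82 with upper-quartile scaling, -0.98 without a filter and -0.58 with a mean of at least 50. With each library left out in turn, 41 to 49 were higher, 85 to 99 lower, and the median ranged from -0.85 to -0.71. Among members that overlap no annotated coding gene, 50 were higher and 82 lower (median -0.79).

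Same-numbered libraries did not deviate together (correlations 0.0086, -0.0033 and -0.050), so they were not taken as pairs. With a replicate block 57 lincRNAs were higher and 104 lower, with a median of -0.77, and PVT1 passed the test at 0.32.

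Depth limits the members under the filter most, with 10 to 61 reads in all.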
